A study of Homo sapiens with 6 samples.

Results

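The intraflagellar transport (IFT) and BBSome genes code for the transport machinery of the primary cilium. Their 32 symbols were matched to 33 rows of a table of 58336 genes by Ensembl identifier. They were listed by function, as a contrast to cell cycle genes already known to fall in these data. The list holds 8 genes of the IFT-B core, 6 of the IFT-B periphery, 6 of IFT-A, 8 BBSome subunits, 3 BBSome chaperonins and the small GTPase ARL6. RNA was sequenced from A2780 cells, an established human ovarian cancer line, treated with DMSO vehicle or with 6 µM TH588 (TH-588 in the labels) for 48 h. The labels give the time for TH588 only and none for DMSO. TH588 is an inhibitor of the nucleotide-cleaning enzyme MTH1 that also arrests cells in mitosis. Each treatment had 3 libraries, named A, B and C, from independent experiments. All came from 1 line grown in serum and insulin, with no other cell line in the table, and no readout of cilia accompanies the counts.

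The primary cilium is a single antenna that grows from the mother centriole in cells that have left the cycle and is taken down before division. Kinesin-2 pulls IFT trains outward along the axoneme, with IFT-B carrying tubulin and other building blocks, and dynein-2 brings the trains back with IFT-A, which also admits membrane receptors. The BBSome, built with the help of chaperonin-like proteins and recruited to membranes by ARL6, rides on these trains and takes signaling receptors out of the cilium. Loss of its parts causes Bardet-Biedl syndrome, for which the BBS genes are named.

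Library totals were between 77634048 and 99074175 counts in 5 libraries and 28537837 in TH588 A, where the small nucleolar RNA SNORD3A took 21.9% of counts against 7.68% to 13% in the others. The 32 genes together made up between 0.0833% and 0.102% of counts. A count of 3, used as the floor of detection, was worth between 0.0276 and 0.112 CPM (counts scaled to a common library size), and every tested member was above it in all libraries. This floor covers counting error only. Of 9 markers listed for ovarian epithelium and A2780 identity, EPCAM, KRT18 and VIM passed 1 CPM in at least 1 library. VIM is not specific to epithelium, and EPCAM was at 0.548, 0.497 and 0.886 CPM in the DMSO libraries. PAX8, KRT7 and MUC16 were at 0 in all DMSO libraries, and CDH1, WT1 and KRT8 averaged at most 0.043 CPM there. The ovarian epithelial label thus rests on few of its markers. Markers of multiciliated cells summed to between 13.7 and 15.1 CPM with DMSO and between 17.3 and 18.2 CPM with TH588, and FOXJ1, their defining regulator, was at 0 in all DMSO libraries and averaged 0.0369 CPM with TH588. Within that sum RSPH1 (log2 fold change 1.95), PIFO (1.92) and RSPH4A (0.51) rose and CCDC40 fell (-0.40), and of the epithelial markers EPCAM (2.88) and KRT18 (0.88) rose. Their part in the results was not tested. Fibroblast markers, all 6 of which were detected, summed to between 1590 and 1920 CPM with DMSO and between 1880 and 2620 CPM with TH588. Nearly all of that sum was COL3A1, which averaged 1730 CPM with DMSO and 2280 CPM with TH588. The other fibroblast markers averaged between 1.43 (COL1A2) and 6.99 CPM (DCN) with DMSO. Because whole cultures were lysed, fewer cells of a type and less RNA per cell cannot be told apart.

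The question was how a cilium gene set behaves beside the cell cycle genes that fall with TH588. One row was tested for each of the 32 genes, and 22 passed an adjusted p of 0.05 in edgeR's quasi-likelihood test (68.8%), where 49.6% of the 15844 genes tested did so. Of these, 12 were higher with TH588 (37.5%, against 24.2% of all genes) and 10 were lower (31.2%, against 25.3%). The libraries of the 2 treatments did not overlap for 23 members, beside 57.7% of all genes tested. Members went both ways: log2 fold changes ran from -1.60 to 1.37 around a median of 0.15, beside 0.02 over all genes. The median size of change regardless of sign was 0.46 for the members and 0.43 for all genes, and 15.6% of members changed over 2-fold, beside 17% of all genes. All 43 S phase genes and all 54 G2/M phase genes of lists used for comparison were lower, with medians of -1.30 and -1.02.

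**Figure D1:**
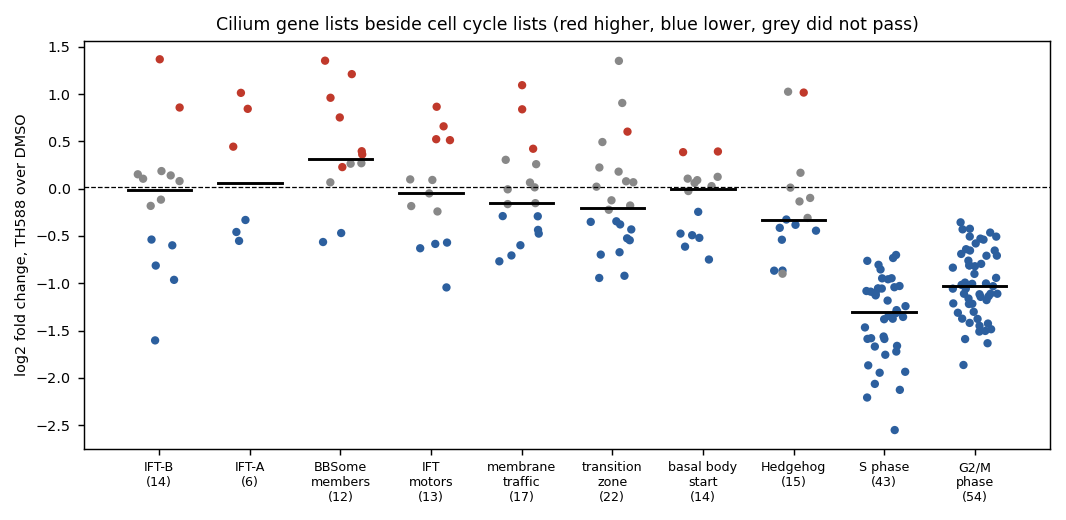
Log2 fold change (TH588 over DMSO, vertical axis) of each tested gene in 10 lists, with the number of genes in parentheses, a thick line at each list's median and a dashed line at the median of all genes (0.02). The IFT and BBSome genes spread on both sides of 0, while the points of the S phase and G2/M phase lists all lie below it.

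Promoter sequence shows what the members share outside of expression. RFX factors, the transcription factors that switch on many cilium genes, bind the X-box, an inverted repeat each arm of which typically reads GTTGCC. RefSeq promoter windows (GRCh38.p14, 250 bases before to 50 after a start site) were found for 29 of the 32 genes, as 37 windows; IFT22, BBS9 and WDR35 had none. GTTGCC, searched on both strands and counted also where it lies within an X-box, was in 43.2% of the member windows and in 12.2% of all 35116 windows. Windows of S phase genes held it in 14% and those of transition zone genes in 34.8%. Among the members it was in 35.7% of windows of genes higher with TH588, 41.7% of those lower and 54.5% of those that did not pass. These are matches of letters and not tested binding sites.

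A whole X-box was in 8.11% of member windows, 21.7% of transition zone windows and 1.31% of all windows, and matches in IFT122 and IFT57 are printed as examples of the full repeat. Each is shown in gene orientation with its matched bases in capitals and 10 bases on either side. The IFT122 match starts 12 bases before the start site in the window chr3:129439974-129440273 (+ strand) and the IFT57 match 3 bases before it in chr3:108222375-108222674 (- strand).
IFT122: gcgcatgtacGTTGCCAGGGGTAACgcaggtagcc
IFT57: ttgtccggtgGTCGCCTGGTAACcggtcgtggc
Both genes were lower with TH588. Full repeats were in 16.7% of windows of members that fell, 9.09% of those of members that did not pass and 0% of those of members that rose, on 12, 11 and 14 windows.

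The windows of the members with the largest rise and the largest fall are printed whole, with GTTGCC or its reverse complement in capitals. The IFT74 window shown, the one nearest to the start of the gene in the table, is chr9:26946860-26947159 (+ strand), and the IFT46 window is chr11:118565882-118566181 (- strand), several kilobases inside the gene as the table places it, so it is not the start shared with ARCN1 that is described further on.
IFT74: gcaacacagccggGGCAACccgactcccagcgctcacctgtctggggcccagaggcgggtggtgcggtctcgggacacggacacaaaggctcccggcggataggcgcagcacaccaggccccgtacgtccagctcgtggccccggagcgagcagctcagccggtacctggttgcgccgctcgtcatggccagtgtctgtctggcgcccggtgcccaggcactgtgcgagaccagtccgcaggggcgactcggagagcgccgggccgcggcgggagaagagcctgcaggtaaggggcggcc
IFT46: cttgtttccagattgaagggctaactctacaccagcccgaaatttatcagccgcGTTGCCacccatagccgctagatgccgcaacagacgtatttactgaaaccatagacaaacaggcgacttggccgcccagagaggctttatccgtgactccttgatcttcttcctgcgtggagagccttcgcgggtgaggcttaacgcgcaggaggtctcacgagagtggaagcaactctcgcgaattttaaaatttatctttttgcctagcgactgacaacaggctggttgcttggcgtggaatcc
Both hold GTTGCC or its complement, and the genes moved in opposite directions.

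Other GTTGCC matches lie close to start sites in members that rose, fell or did not pass. Matches are shown for TTC8 and IFT27, which rose, for ARL6 and HSPB11, which fell, and for IFT81 and CLUAP1, which did not pass.
TTC8: gccgtcgcggGTTGCCgggcagagtc
IFT27: agcttttggcGGCAACcaatcgaggg
ARL6: agaagctcctGTTGCCaagggaacgg
HSPB11: gggggctgggGGCAACcaggcgccgt
IFT81: cctagcaaccGTTGCCaaggagctcg
CLUAP1: gggtccattgGTTGCCatagagatcg
By contrast, TTTGAA, the core of the element through which many G2/M genes are repressed, was in 8.11% of member windows, 15.2% of all windows and 62.1% of windows of the G2/M list. The E2F site, searched as TTTCGCGC or TTTGGCGC on both strands, was in 5.41% of member windows, those of CLUAP1 and HSPB11, in 1.15% of all windows and in 27.9% of those of the S phase list.

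The BBSome subunits were the role in which no member fell: 5 of 8 rose and 3 did not pass. That is 62.5% higher and 0% lower, beside 24.2% and 25.3% of all genes. Log2 fold changes ran from 0.07 to 1.21 around a median of 0.32. Their summed level was 201, 204 and 207 CPM in DMSO A, B and C and 341, 295 and 324 CPM in TH588 A, B and C. The lowest TH588 sum thus lay above the highest DMSO sum.

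BBS9, a β-propeller subunit (chr7:33129244-33606068), was at 13.8, 14.7 and 14.1 CPM with DMSO and at 32.5, 30.0 and 36.2 CPM with TH588. It rose 2.32-fold, a log2 fold change of 1.21 ± 0.10 (SE, n = 3 per group, adjusted p = 1.11e-06). BBS4, which binds the satellite protein PCM1 (chr15:72686179-72738476), was at 40.3, 46.0 and 40.9 CPM with DMSO and at 84.7, 75.4 and 87.7 CPM with TH588, a log2 fold change of 0.96 ± 0.09 (adjusted p = 3.3e-06). In both genes the lowest TH588 value lay well above the highest DMSO value. BBS2, which pairs with BBS7 in the complex (chr16:56466836-56520283), was at 54.1, 51.5 and 56.6 CPM with DMSO and at 99.9, 86.0 and 87.8 CPM with TH588, a log2 fold change of 0.75 ± 0.08 (adjusted p = 1.59e-05). The TH588 libraries were again all above the DMSO libraries.

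Changes were smaller in the other subunits. TTC8 (BBS8), a tetratricopeptide subunit, rose from 36.3 ± 0.86 to 46.8 ± 4.56 CPM (mean ± SD, n = 3), a log2 fold change of 0.36 (adjusted p = 0.00485). BBS7 rose from 46.2 ± 1.21 to 54.2 ± 5.11 CPM, a log2 fold change of 0.23 (adjusted p = 0.0442), a call that was lost without DMSO A, DMSO B, DMSO C or TH588 A, with adjusted p = 0.0783, 0.16, 0.0796 and 0.0789. BBS1, the subunit that binds ARL6, was at 1.06, 0.945 and 0.854 CPM with DMSO and at 0.934, 1.11 and 1.34 CPM with TH588 (log2 fold change 0.27, adjusted p = 0.38). TH588 A fell among the DMSO libraries, and 64.5% of the BBS1 exon bases are shared with other genes. BBIP1 (BBS18), the smallest subunit, was at 7.74, 6.80 and 7.38 CPM with DMSO and at 11.2, 7.60 and 7.86 CPM with TH588 (log2 fold change 0.26, adjusted p = 0.173). Here TH588 A stood above the other 5 libraries and TH588 B lay among those of DMSO. BBS5, a subunit with lipid-binding domains, was at 1.80, 2.48 and 2.03 CPM with DMSO and at 1.61, 2.07 and 2.80 CPM with TH588 (log2 fold change 0.07, adjusted p = 0.827). The TH588 values of BBS5 spanned the whole DMSO range, and the sign of its difference turned with the removal of a gene length trend.

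**Figure D2:**
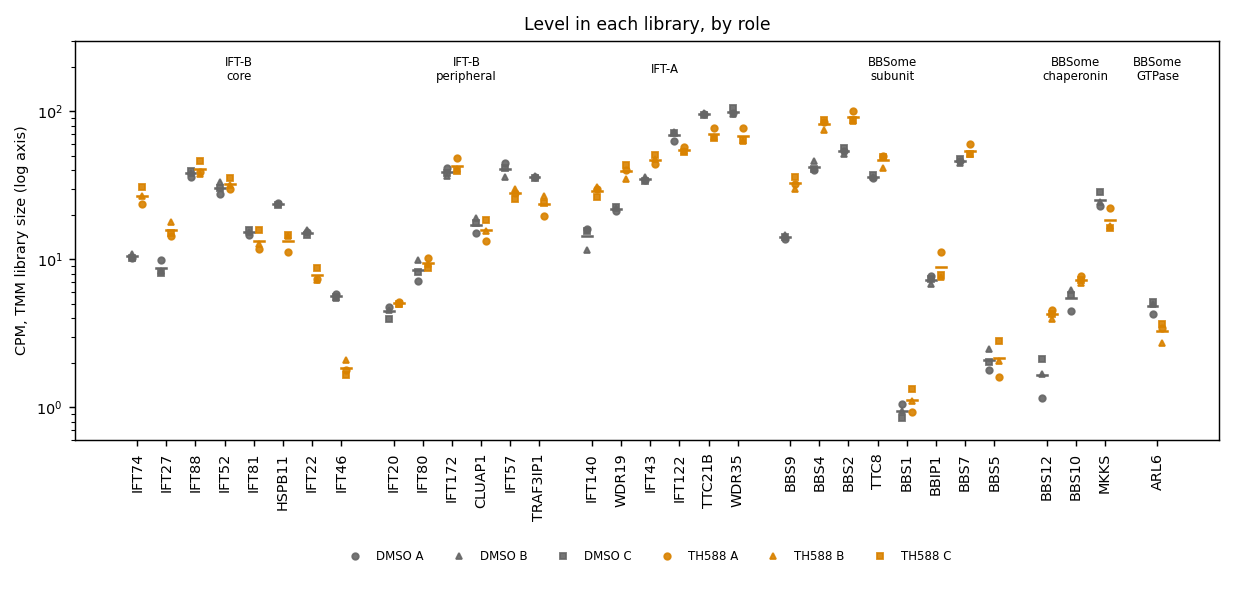
Level of each of the 32 genes in each library (CPM on TMM library sizes, log axis), grouped by role, with DMSO in grey, TH588 in orange, a symbol for each of the libraries A, B and C and a short line at the mean of each group. IFT46 shows the widest gap downward, from 5.64 to 1.84 CPM, and IFT74 the widest upward, from 10.5 to 27.0 CPM.

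Per kilobase of exon not shared with other genes, the levels of the subunit genes were far from equal. These bases are all annotated exons of a gene together, 6444 for BBIP1 and 2181 for BBS1, and not the length of the message made. The order between genes therefore depends on the annotation as well, and message lengths were not measured. With DMSO the order of CPM per kilobase was BBS4 (10.2), BBS7 (9.56), BBS2 (6.66), TTC8 (5.81), BBS9 (2.29), BBIP1 (1.13), BBS5 (0.591) and BBS1 (0.437), and only BBS4 and BBS7 overlapped as neighbours. With TH588 BBS4 stood alone at 19.9 CPM per kilobase, and BBS2 and BBS7 overlapped at 11.2 each. TTC8 followed at 7.48, BBS9 at 5.31 and BBIP1 at 1.38, while BBS5 (0.607) and BBS1 (0.518) overlapped. BBS9 remained in the fifth place in both orders.

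The chaperonins that assemble the BBSome and the GTPase that recruits it moved apart. BBS12 (chr4:122732702-122744943), a chaperonin-like assembly factor, was at 1.16, 1.68 and 2.12 CPM with DMSO and at 4.52, 3.99 and 4.27 CPM with TH588. Its log2 fold change was 1.35 ± 0.21 (adjusted p = 0.000182), with no overlap between the groups and a wide spread among the DMSO libraries. BBS10, its partner in assembly, rose from 5.51 ± 0.90 to 7.28 ± 0.40 CPM (log2 fold change 0.40, adjusted p = 0.0346). That call was lost without DMSO A, TH588 A or TH588 C, with adjusted p = 0.111, 0.0586 and 0.0638. MKKS (BBS6), the third of these factors, fell from 25.3 ± 2.85 to 18.4 ± 3.27 CPM (log2 fold change -0.47, adjusted p = 0.00986). Without DMSO C its adjusted p was 0.0599 and without TH588 C it was 0.0589. A further row with the symbol MKKS, whose exons lie wholly within those of MKKS, had 0 counts in all 6 libraries. ARL6 (BBS3; chr3:97764521-97801242) was at 4.25, 5.03 and 5.16 CPM with DMSO and at 3.44, 2.72 and 3.67 CPM with TH588, a log2 fold change of -0.56 ± 0.16 (adjusted p = 0.0106). Every TH588 value lay below every DMSO value, and without DMSO C the adjusted p was 0.0541.

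IFT-A divided evenly: all 6 genes passed, 3 higher and 3 lower. That is 50% each way, beside 24.2% and 25.3% of all genes. The median of 0.06 on the log2 scale was 0.16 with library size only and -0.02 with a gene length trend removed. The summed level was 329, 336 and 344 CPM with DMSO and 326, 297 and 305 CPM with TH588. IFT140, a core subunit (chr16:1510427-1612110), was at 16.0, 11.5 and 15.6 CPM with DMSO and at 29.8, 30.8 and 26.5 CPM with TH588, a log2 fold change of 1.01 ± 0.13 (adjusted p = 4.11e-05). WDR19 (IFT144; chr4:39182404-39285810), another core subunit, was at 21.3, 22.2 and 22.5 CPM with DMSO and at 40.2, 34.7 and 43.7 CPM with TH588, a log2 fold change of 0.84 ± 0.10 (adjusted p = 1.94e-05). Both genes were higher in each TH588 library than in any DMSO library. IFT43, a small peripheral subunit, rose from 34.8 ± 1.14 to 47.3 ± 3.30 CPM (log2 fold change 0.44, adjusted p = 0.000768).

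The other IFT-A genes fell. WDR35 (IFT121; chr2:19910260-19990131), which resembles vesicle coat proteins, was at 97.2, 96.2 and 106 CPM with DMSO and at 77.0, 63.3 and 64.2 CPM with TH588, a log2 fold change of -0.55 ± 0.09 (adjusted p = 0.000342). The highest TH588 value, in library A, was below the lowest DMSO value. TTC21B (IFT139) fell from 96.5 ± 1.30 to 70.4 ± 6.20 CPM (log2 fold change -0.46, adjusted p = 0.000609), and IFT122, also a core subunit, fell from 69.0 ± 4.82 to 54.9 ± 2.29 CPM (log2 fold change -0.33, adjusted p = 0.00508). Per kilobase, TTC21B (13.8) and WDR35 (12.7) led with DMSO and IFT140 was last at 1.88. With TH588, IFT43 (11.6), TTC21B (10.0) and WDR35 (8.70) followed each other with overlapping neighbours, and WDR19 (4.46) overlapped with IFT140 (3.79).

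The IFT-B core held the extremes of both directions: 2 of its 8 genes rose, 3 fell and 3 did not pass. These shares, 25% higher and 37.5% lower, stand beside 24.2% and 25.3% of all genes. IFT74 (chr9:26947039-27062930), which with IFT81 binds tubulin, was at 10.3, 10.9 and 10.3 CPM with DMSO and at 23.5, 26.8 and 30.7 CPM with TH588. It rose 2.58-fold, a log2 fold change of 1.37 ± 0.11 (adjusted p = 1.27e-06), with the groups far apart. IFT27 (chr22:36758202-36776256), a Rab-like GTPase through which the BBSome leaves the cilium, was at 9.88, 8.37 and 8.14 CPM with DMSO and at 14.5, 17.9 and 15.2 CPM with TH588, a log2 fold change of 0.86 ± 0.12 (adjusted p = 0.00012). All its TH588 libraries were above those of DMSO.

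IFT46 (chr11:118544528-118572970), a core subunit needed to carry dynein arms into motile cilia, was at 5.88, 5.47 and 5.58 CPM with DMSO and at 1.79, 2.09 and 1.65 CPM with TH588. It was 3.04-fold lower, a log2 fold change of -1.60 ± 0.15 (adjusted p = 3.42e-06), resting on between 48 and 227 counts in the TH588 libraries. IFT22 (chr7:101313367-101321823), a further Rab-like GTPase, was at 15.3, 15.7 and 14.7 CPM with DMSO and at 7.40, 7.21 and 8.78 CPM with TH588, a log2 fold change of -0.96 ± 0.12 (adjusted p = 2.68e-05). HSPB11 (IFT25; chr1:53916574-53945929), the small heat shock-like partner of IFT27, was at 24.0, 23.8 and 23.4 CPM with DMSO and at 11.2, 14.4 and 14.7 CPM with TH588, a log2 fold change of -0.81 ± 0.11 (adjusted p = 8.78e-05). None of these falling genes overlapped between the groups. IFT52, the scaffold of the core, was at 27.8, 33.6 and 30.4 CPM with DMSO and at 29.8, 31.7 and 35.3 CPM with TH588 (log2 fold change 0.08, adjusted p = 0.53), and its sign turned with the removal of a gene length trend. Its groups overlapped, as did those of IFT88, the subunit disrupted in a classic mouse model of polycystic kidneys (log2 fold change 0.11, adjusted p = 0.387), and IFT81 (-0.18, adjusted p = 0.238).

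In the IFT-B periphery, which meets the kinesin, no gene rose, 2 fell and 4 did not pass, 33.3% called beside 49.6% of all genes. TRAF3IP1 (IFT54; chr2:238320441-238400900), which binds tubulin, was at 35.8, 36.4 and 35.4 CPM with DMSO and at 19.8, 26.8 and 23.9 CPM with TH588, a log2 fold change of -0.60 ± 0.11 (adjusted p = 0.000516). IFT57 (chr3:108160812-108222570) was at 44.7, 35.8 and 41.2 CPM with DMSO and at 28.3, 30.1 and 25.5 CPM with TH588, a log2 fold change of -0.54 ± 0.10 (adjusted p = 9e-04). Both were lower in each TH588 library than in any DMSO library. IFT20, the subunit also found at the Golgi, was above its DMSO values in all TH588 libraries yet did not pass (log2 fold change 0.19, adjusted p = 0.261). IFT80 (0.15, adjusted p = 0.385), IFT172 (0.14, adjusted p = 0.256) and CLUAP1 (IFT38; -0.12, adjusted p = 0.493) did not pass either, and 35.7% of IFT80 exon bases are shared with other genes.

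**Figure D3:**
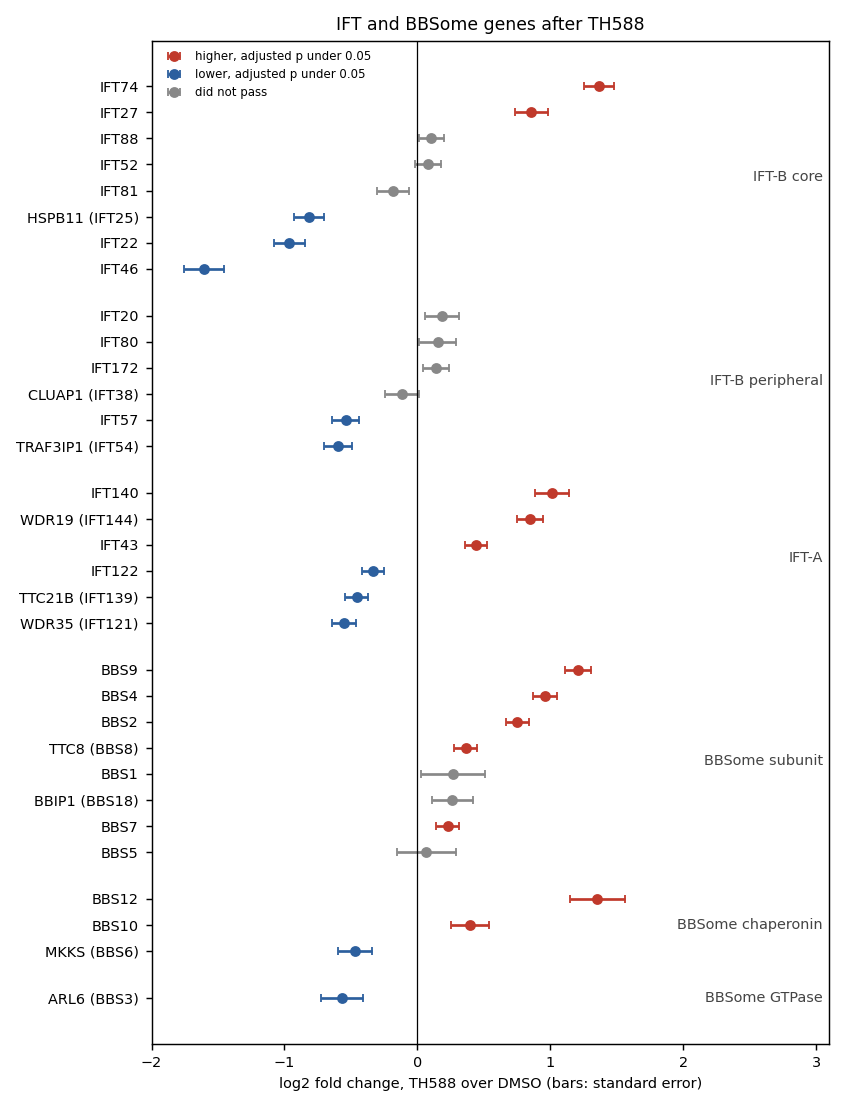
Log2 fold change of each member (TH588 over DMSO, horizontal axis, bars show 1 standard error) grouped by role, red for higher and blue for lower at an adjusted p under 0.05 and grey for those that did not pass. The BBSome subunits all lie at or above 0.07 (BBS5 turned below 0 with a gene length trend removed), IFT-A holds 3 genes on each side, and the IFT-B core runs from -1.60 to 1.37.

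Ratios between genes whose products bind each other were read within single libraries, since a log2 ratio of raw counts needs no scaling between libraries. The 7 pairs were picked after the values were seen, so their ratios are a description with no test. Both genes passed in opposite directions in IFT27 with HSPB11 and in IFT43 with WDR35, and BBS2 and BBS7 both rose. IFT27 over HSPB11 was -1.28, -1.50 and -1.52 with DMSO and 0.38, 0.32 and 0.06 with TH588, a 3.22-fold change of the ratio. IFT74 over IFT81 was -0.51, -0.50 and -0.62 with DMSO and 1.0, 1.06 and 0.96 with TH588, a 2.94-fold change. The sign of both ratios turned in every TH588 library, although gene lengths differ and the sign itself does not compare numbers of transcripts. IFT52 over IFT46 went from 2.44 ± 0.19 to 4.13 ± 0.25 (mean ± SD, n = 3), a 3.24-fold change.

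Shifts were smaller in the remaining pairs. IFT43 over WDR35 went from -1.52 ± 0.11 to -0.52 ± 0.25, IFT20 over TRAF3IP1 from -3.01 ± 0.12 to -2.20 ± 0.25 and BBS2 over BBS7 from 0.23 ± 0.03 to 0.75 ± 0.02. CLUAP1 over IFT57 overlapped between the groups (-1.24 ± 0.32 and -0.83 ± 0.32).

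**Figure D4:**
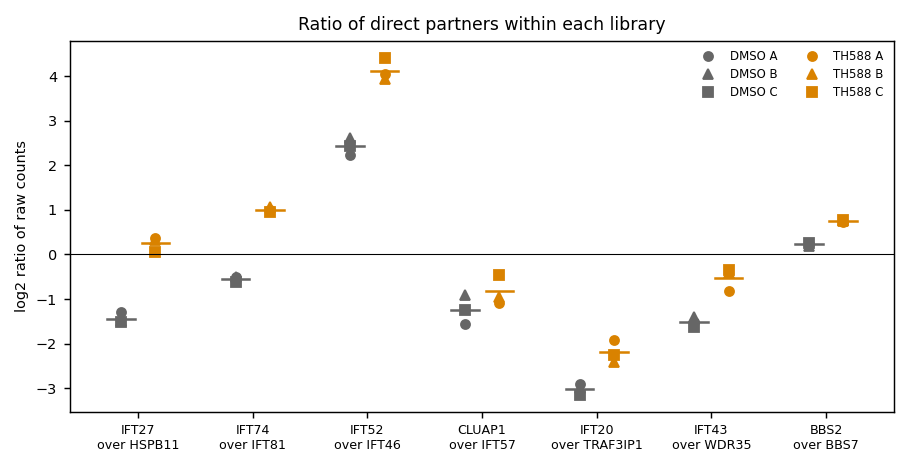
Log2 ratio of the raw counts of partner genes within each library (vertical axis) for 7 pairs, DMSO in grey and TH588 in orange, with a line at each group's mean. The points of IFT27 over HSPB11 and IFT74 over IFT81 lie below 0 with DMSO and above 0 with TH588, and CLUAP1 over IFT57 is the pair that overlaps.

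Several members share a start region with a gene on the opposite strand. By the outermost annotated start of each gene, 8 members lay within 1000 bases of such a neighbour. In 2 of these pairs both genes passed the test, each time in the same direction. Over all tested genes both passed in 393 of 1259 such pairs, and 250 of these 393 went the same way. Called or not, the 2 genes had the same sign in 75% of the member pairs and in 56.8% of all pairs. IFT140 and CRAMP1 both rose (CRAMP1 log2 fold change 1.18), and IFT122 and the repair glycosylase gene MBD4 both fell (MBD4 -0.39). The neighbours of the strongest movers did not pass: ARCN1, beside IFT46, had a log2 fold change of -0.12 (adjusted p = 0.241) and PLAA, beside IFT74, of 0.01 (adjusted p = 0.937). The IFT46 promoter window lies several kilobases from the start beside ARCN1, and IFT74 has a further window at chr9:26956162-26956461. Which start the cells used was not tested, so these pairs may not share an active start region. SMC4, a condensin gene beside IFT80, fell by 1.14 on the log2 scale. TNFAIP1, beside IFT20, rose (0.77, adjusted p = 0.000105), while IFT20 and IFT80 did not pass. Neighbours were looked at after the values were seen.

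Related cilium genes were read from the same fit. Of 7 further IFT and BBSome partners, IFT56 (TTC26 in the gene table), a subunit next to IFT46 in the IFT-B core, fell from 12.2 ± 1.52 to 4.43 ± 0.69 CPM (log2 fold change -1.47, adjusted p = 7.22e-06), RABL2A (0.56) and RABL2B (0.51), GTPases that act with IFT-B and whose near-identical sequences make their counts uncertain, rose, and 4 did not pass. The share called among these partners was 42.9%, beside 49.6% of all genes. Of 13 motor genes 4 rose and 4 fell (30.8% each way, beside 24.2% and 25.3% of all genes), or 2 fell without DMSO B or without TH588 B. KIFAP3, the adaptor of kinesin-2, rose (0.87), as did the accessory kinesin KIF17 (0.52) and the dynein-2 parts DYNLRB1 (0.66) and DYNC2LI1 (0.51). Other dynein-2 parts, DYNLT2B (-1.04), DYNC2I2 (-0.63), DYNLL2 (-0.58) and DYNLL1 (-0.57), fell, and the heavy chain gene DYNC2H1 did not pass (-0.24).

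Lists that deal with the cilium base and gate held more genes that fell than rose. The share called was 50% in the transition zone, 57.1% at the basal body and 58.8% in membrane traffic, beside 49.6% of all genes, and the shares lower were 45.5%, 42.9% and 41.2%, beside 25.3%. Of 22 transition zone genes 1 rose (TMEM107, 0.60) and 10 fell, led by IQCB1 (-0.94), RPGRIP1L (-0.92) and NPHP4 (-0.70), with a median of -0.20. Among 14 genes that start ciliogenesis at the basal body 2 rose and 6 fell, with TTBK2, the kinase that opens the mother centriole, at 0.39 and ODF2, an appendage protein, at -0.75. Of 17 genes of ciliary membrane traffic 3 rose, led by RAB8B (1.09), and 7 fell, led by RABEP2 (-0.77) and RAB23 (-0.71). With library size only 4 of the traffic genes fell, and 3 transition zone genes rose. Without DMSO B no transition zone gene rose.

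Genes listed as holding back or dismantling cilia also went both ways but more fell, with 3 of 12 higher and 6 lower. That each of them, TRIM32 among them, acts in this way in A2780 cells was not tested. These were 25% and 50%, beside 24.2% and 25.3% of all genes, and the median was -0.52. AURKA and NEK2 of this list are also in the G2/M list used for comparison. HDAC6, the tubulin deacetylase, rose (1.02) together with CEP97 (0.88) and TRIM32 (0.39), while KIF24 (-1.13), AURKA (-1.11) and PLK1 (-1.02) fell, the last 2 being mitotic kinases as well. The list of RFX factors also held FOXJ1, which is not an RFX factor, and 6 of its 9 genes were tested. RFX5 (1.38), RFX3 (0.84) and RFX7 (0.44) rose (50% higher, beside 24.2% of all genes) and none fell. RFX6, RFX8 and FOXJ1 were not tested. RFX4 (0.69, adjusted p = 0.258), RFX1 (0.15, adjusted p = 0.374) and RFX2 (0.14, adjusted p = 0.48) did not pass. RFX3 has a known role in ciliogenesis, but its rise does not stand for the RFX factors as a group. In Hedgehog signaling, which runs through the cilium, 1 of 15 tested genes rose (BOC, 1.02) and 7 fell, or 4 with library size only. The falls were led by GLI2 (-0.87), PTCH1 (-0.87) and KIF7 (-0.54). The shares were 53.3% called and 46.7% lower, beside 49.6% and 25.3% of all genes.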

How the data were processed

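RNA-seq (poly(A) RNA, TruSeq RNA kit v2) was available for 6 A2780 libraries, 3 per treatment. The authors deposited raw counts per gene. Per the labels these came from TopHat and featureCounts 1.4.6 (Subread) on GRCh38. Strand setting and treatment of multi-mapped reads are not given in the sources used here. Of 721 genes lying wholly within exons of a gene on the opposite strand, 721 had 0 counts in all libraries (100%), as did 987 of 1082 on the same strand (91.2%) and 56% of all genes. Levels per kilobase therefore use exon bases shared with no other gene, on the assumption that reads on shared bases were not counted. They take all annotated exons of a gene together, so comparisons of these levels between genes depend on the annotation.

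All 58336 genes entered edgeR 4.0.16 (R 4.3.3) with TMM scaling, filterByExpr at its defaults and the quasi-likelihood F test. The p-values were adjusted by Benjamini-Hochberg over 15844 tested genes, with 0.05 as the threshold. SE is the log2 fold change over the square root of F. CPM uses TMM library sizes. On simulated counts for 15545 genes the test recovered 77 of 96 genes changed by a log2 fold change of 1 (80.2%) and 34 of 96 changed by 0.5 (35.4%). Few genes were changed in that simulation, while 49.6% of genes passed in the data. The adjusted threshold was therefore stricter in the simulation, and its shares do not give the sensitivity of the test in the data.

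Every member is named. Values in each library are given for members past the threshold with a log2 fold change of at least 0.5 in size, and for the 2 largest and 2 smallest changes among those that did not pass. From other lists up to 3 genes each way were named. DYNC2LI1, DYNLL1, DYNC2H1, PIFO, RFX1, RFX2, RFX4 and the start-site neighbours were named after their values were seen. The members and lists were chosen with earlier results of these data known, and sequences come from RefSeq promoter tables. Alternatives were DESeq2 1.42.0 and its size factors, library size only, removal of the 10 most abundant genes, limma-voom (limma 3.58.1), omission of the filter, a minimum of 10 counts per library, a replicate block, removal of a gene length trend, each library left out, and an adjusted p under 0.01. Pairs of replicates differed beyond sampling noise (chi-square over its degrees of freedom, 23.5 to 165). A gene of the ciliary membrane traffic list and a promoter match are not reported here.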

Additional observations from a re-analysis of the deposited data

How the results depend on the processing

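Between 19 and 22 members passed under all alternatives run, with 10 to 12 higher and 8 to 10 lower. Calls were lost in BBS7, BBS10, MKKS and ARL6 under some of them, and in IFT122 with library size only (adjusted p = 0.0659). The median log2 fold change of the members (0.15) was 0.247 with library size only, 0.073 with the gene length trend removed and 0.076 with that and the replicate block, and lay between 0.15 and 0.20 with each library left out. The median of all genes moved from 0.02 to 0.13 with library size only and to -0.08 with the length trend removed, and the share of calls that were higher moved from 48.9% to 60.4% and 39.9%. BBS5 turned to -0.035 with the length trend removed and to -0.076 with the replicate block added, and ranged from -0.15 to 0.22 with each library left out. IFT52 turned to -0.087 and -0.088 under the same settings. The cause was not tested. No pairing by the letters A, B and C was visible, with correlations of -0.07, -0.08 and 0.00 between deviations of same-lettered libraries. With 3 libraries per group these values cannot show that the libraries were unpaired. The replicate block left 20 members called, without BBS7 and BBS10, and 7195 of all genes in place of 7852. TH588 A holds the fewest counts, and without it 20 members passed. The standard errors were widest for BBS1 (0.24), BBS5 (0.22) and BBS12 (0.21), which were among the members with the lowest CPM.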
